A study of Homo sapiens and Mus musculus with 12 samples.

Results

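ABL1, ABL2, SRC, LYN, YES1, FYN, LCK, DDR1, DDR2 and RIPK1 are kinases that ponatinib is known to bind. Their transcripts were examined in the human line MDA-MB-231 and the mouse line 4T1, at baseline and after treatment. The 10 genes were taken by symbol, with the mouse genes of the same symbol, from 63677 gene identifiers in the human count tables and 47729 in the mouse tables. All 10 were present in both. In MDA-MB-231, 9 of them passed the filter on low counts and were tested, *LCK* being the exception, and in 4T1 all 10 were tested.

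RNA-seq libraries were made from 2 lines labelled as WT. MDA-MB-231 is a human line of triple-negative breast cancer (TNBC), and 4T1 was derived from a mammary tumor of a mouse. Cells of each line received 1 μmol/L of ponatinib, an inhibitor of many tyrosine kinases, or DMSO as the control for 24 h. The 4 groups (MDA-MB-231 with DMSO or ponatinib, 4T1 with DMSO or ponatinib) held 3 libraries each, 12 in all, with 15012884 to 17301760 counts per MDA-MB-231 library and 17800675 to 18951493 per 4T1 library. The labels do not say whether the 3 libraries of a group came from separate cultures, so the P values measure the spread between these libraries, which may be technical.

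ABL1 and ABL2 are non-receptor tyrosine kinases that link growth factor and integrin signals to the actin cytoskeleton. SRC, LYN, YES1, FYN and LCK belong to the SRC family, which is held at the inner face of the plasma membrane by lipid groups and is kept inactive through phosphorylation of the C-terminal tail by CSK. DDR1 and DDR2 are receptor tyrosine kinases that are activated by collagen, and RIPK1 is a serine/threonine kinase that joins TNF receptor signaling to NF-κB, apoptosis and necroptosis. Ponatinib occupies the ATP site of such kinases while the Asp-Phe-Gly triplet at the start of the activation loop is turned outward. These data measure transcript levels and not kinase activity.

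The coding sequence around that triplet is shown for 6 of the human genes. The sequences come from the GENCODE v44 transcripts on hg38, are written 5′ to 3′ along the coding strand, and have the 3 codons of the triplet in capitals:
ABL1: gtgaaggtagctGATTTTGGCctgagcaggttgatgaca
ABL2: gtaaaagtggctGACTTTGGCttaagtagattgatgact
SRC: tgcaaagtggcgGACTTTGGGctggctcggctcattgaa
FYN: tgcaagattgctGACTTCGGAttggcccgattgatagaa
DDR1: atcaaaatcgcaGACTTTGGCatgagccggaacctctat
RIPK1: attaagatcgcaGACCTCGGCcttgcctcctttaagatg

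In 9 of the 10 human genes the capitals encode aspartate, phenylalanine and glycine. *RIPK1* is the exception, with a leucine codon in the middle. The *ABL1* stretch lies in exon 7 of 11 (chr9:130874911-130874949, plus strand) and that of *ABL2* in exon 8 of 12 (chr1:179117435-179117473, minus strand), and they share 30 of 39 bases. The *SRC* stretch (exon 12 of 14, chr20:37402525-37402563, plus strand) shared 22 of 39 bases with *ABL1*. The *DDR1* stretch lies in exon 16 of 18 (chr6:30898194-30898232, plus strand) and the *FYN* stretch in exon 12 of 14 (chr6:111694400-111694438, minus strand). That of *RIPK1* crosses an exon boundary. All of it is coding sequence. Between human and mouse the stretch was the same at 35 to 38 of 39 bases in 8 genes and at 29 of 39 in *RIPK1*.

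The main annotated transcripts of these kinases (MANE Select in human, Ensembl canonical in mouse) shared only short runs. The longest identical run between these transcripts of any pair of the genes was 23 bases in human (*ABL1* and *ABL2*, *LCK* and *DDR2*, *YES1* and *FYN*) and 35 bases in mouse (*Abl1* and *Abl2*). Other transcripts of the genes were not compared. Any single other gene, mostly on the opposite strand, covered with its exons at most 3.12% of the exon length of a human kinase gene (*YES1*) and 7.70% of a mouse one (*Yes1*, by *Gm10461*). The strand setting of the counting is not given in the sources used here, so reads from such antisense stretches could not be told apart from those of the kinase.

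Both lines, labelled as epithelial cells of breast, were checked against marker genes. MDA-MB-231 libraries with DMSO held *VIM* at 1288 ± 110 CPM (SD, n = 3; CPM are counts scaled to library size by TMM) and *KRT8* at 890 ± 105 CPM, with *CDH1*, the epithelial cadherin, at 0 counts. *ESR1* was at 3 counts and *PGR* at 30 counts in those 3 libraries together, and *ERBB2* at 98.1 ± 7.46 CPM. Of the other epithelial markers in MDA-MB-231 with DMSO, *KRT19* was at 737 CPM, *KRT18* at 117 CPM and *EPCAM* at 6.44 CPM. Of the mesenchymal ones, *FN1* was at 123 CPM, *ZEB1* at 19.8 CPM, *SPARC* at 1.27 CPM and *CDH2* at 6 counts over the group. In 4T1 with DMSO, *Cdh1* stood at 831 CPM, *Krt18* at 3246 ± 210 CPM and *Vim* at 3257 CPM. *Epcam* was at 2.86 CPM there and *Cdh2* at 5 counts over the group. Both lines therefore carried some epithelial and some mesenchymal markers together. Summed fibroblast and endothelial markers reached at most 1.14 CPM in any MDA-MB-231 library and 4.76 CPM in any 4T1 library.

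Baseline levels were compared between genes as CPM per kb of annotated exon. *ABL1* and *YES1* were the most abundant of the 10 in MDA-MB-231, at 21.1 ± 1.02 and 20.0 ± 0.973 CPM per kb (SD, n = 3), and their libraries overlapped (20.1 to 22.1 and 18.9 to 20.7). *FYN* followed at 8.86 ± 0.310, *ABL2* at 7.90 ± 0.209 and *SRC* at 6.40 ± 0.0704, each apart from its neighbours in every library. *DDR1* (4.06 ± 0.467), *RIPK1* (4.04 ± 0.0584) and *LYN* (3.94 ± 0.305) could not be ordered, since their libraries overlapped. *DDR2* lay far below at 0.102 ± 0.0649, and *LCK* was nearly absent at 0.00648 ± 0.0112, which was 1 count in the 3 libraries together.

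The order in 4T1 was another one. *Src* led at 81.9 ± 6.89 CPM per kb (SD, n = 3), percentile 96.5 of the tested genes of that line, whereas *SRC* stood at percentile 62.1 in MDA-MB-231. *Abl2* came next at 25.5 ± 2.94, then *Ddr1* at 17.9 ± 2.11 and *Abl1* at 8.75 ± 0.609. Lower down, *Ripk1* (4.03 ± 0.124), *Fyn* (3.56 ± 0.259) and *Lyn* (2.94 ± 0.118) were separate in every library. *Yes1* (1.76 ± 0.319) and *Lck* (1.53 ± 0.330) overlapped, and *Ddr2* was the lowest at 0.556 ± 0.0523. The lines were normalized apart and the exon lengths of the species differ, so levels were ordered within a line and not tested between lines. Dividing by the longest transcript instead of all exons exchanged *ABL1* and *YES1* in MDA-MB-231 and *Fyn* and *Ripk1* in 4T1 and kept the rest of both orders. It also moved the levels, as for *FYN* from 8.86 to 18.1 and for *Abl1* from 8.75 to 19.6 CPM per kb. *SRC* then overlapped *DDR1*, and *RIPK1* was apart from *LYN*.

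**Figure D1:**
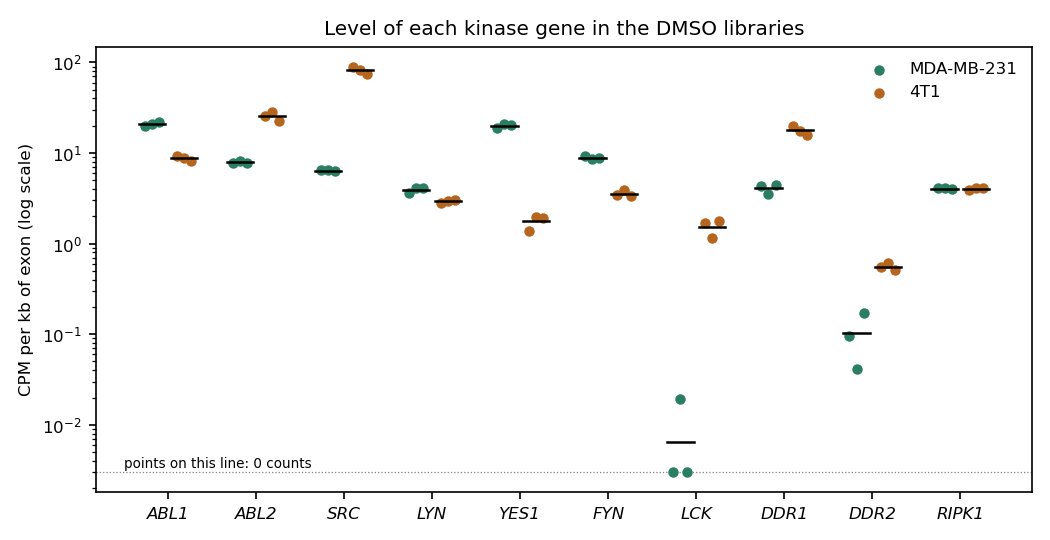
Level of each kinase gene in the 3 DMSO libraries of MDA-MB-231 and of 4T1, in CPM per kb of exon on a log axis, with a point per library and a bar at the mean. *Src* stands highest in 4T1 at 81.9, *ABL1* and *YES1* stand highest in MDA-MB-231 at 21.1 and 20.0, and *LCK* is at 0 counts in 2 of the 3 MDA-MB-231 libraries.

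The SRC family had a different make-up in the 2 lines. Over *SRC*, *YES1*, *FYN*, *LYN* and *LCK*, *YES1* made up 51.0% ± 1.21 (SD, n = 3) of the summed CPM per kb in MDA-MB-231 with DMSO, *FYN* 22.6% ± 1.33, *SRC* 16.3% ± 0.471 and *LYN* 10.1% ± 0.530. In 4T1, *Src* alone made up 89.3% ± 1.19. *LCK* was at 0.0163% ± 0.0282 in MDA-MB-231 with DMSO, and *Lck* was at 1.67% ± 0.416 in 4T1.

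To ask whether ponatinib changed these transcripts, each line was tested over all genes by edgeR's quasi-likelihood test, and a gene was called at a Benjamini-Hochberg adjusted p under 0.05. In MDA-MB-231, 3 of the 9 tested kinases fell (*ABL2*, *LYN*, *YES1*), 3 rose (*DDR1*, *SRC*, *FYN*) and 3 were not called (*ABL1*, *DDR2*, *RIPK1*). That is 6 of 9, where 54% of all 14610 tested genes were called (26.8% lower and 27.2% higher). In 4T1, 6 of 10 fell (*Fyn*, *Ddr2*, *Abl2*, *Lck*, *Src*, *Yes1*), 2 rose (*Lyn*, *Ddr1*) and 2 were not called (*Abl1*, *Ripk1*), where 59% of 13286 tested genes were called (29.4% lower and 29.5% higher). With the replicate number as a block, the calls of the kinases were unchanged, while 66.2% of all genes in MDA-MB-231 and 64.9% of those in 4T1 were called. Scaled by total counts instead, higher genes made up 60% of the called genes of MDA-MB-231 and 62.3% of those of 4T1. The tested kinases had a median log2 fold change of -0.0205 in MDA-MB-231, beside 0.0154 over all tested genes, and of -0.51 in the mouse line, beside -0.00014. Without regard to sign, their median was 0.27 beside 0.42 over all genes of MDA-MB-231, and 0.57 beside 0.39 over those of 4T1. DMSO and ponatinib libraries did not overlap for 6 of the 9 kinases in MDA-MB-231, where 60.4% of all tested genes did not, and for 8 of 10 in 4T1, where 63.4% did not. In these bulk libraries, fewer cells with a transcript and less of it per cell cannot be told apart.

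**Figure D2:**
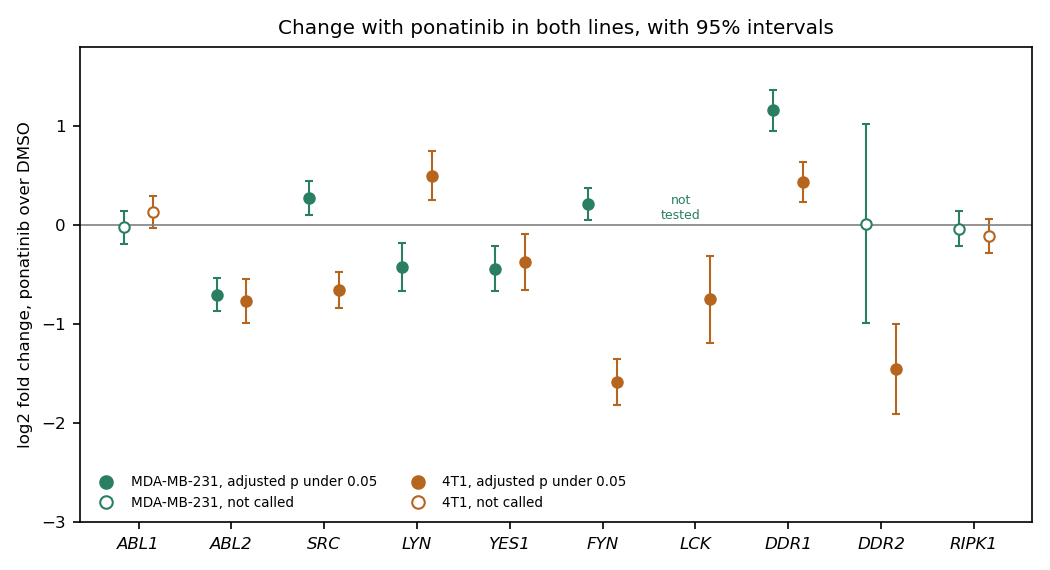
Log2 fold change of each kinase gene with ponatinib over DMSO in MDA-MB-231 and 4T1, with 95% intervals computed from edgeR's quasi-likelihood test. Filled points were called at an adjusted p under 0.05 and open points were not. *ABL2* and *YES1* lie below 0 and *DDR1* lies above 0 in both lines, whereas *SRC*, *LYN* and *FYN* lie on opposite sides.

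Of the ABL pair, *ABL2* fell in both lines, while *ABL1* was not called in either. *ABL2* (ENSG00000143322, chromosome 1 of hg38 from 179099330 to 179229684, minus strand) encodes the ABL kinase with extra actin-binding sites. In MDA-MB-231 it was measured at 130, 136 and 129 CPM in the DMSO libraries and at 77.8, 79.1 and 86.1 CPM in the ponatinib libraries. The groups were far apart, with a log2 fold change of -0.70 (SE 0.08, adjusted p = 1.29e-05). In 4T1, *Abl2* (ENSMUSG00000026596, chromosome 1 of GRCm39 from 156386330 to 156491178) was at 357, 396 and 314 CPM with DMSO and at 241, 202 and 184 CPM with ponatinib. Every ponatinib library was below every DMSO library, and the log2 fold change was -0.77 (SE 0.10, adjusted p = 1.94e-05). The change of *ABL2* was called in all 12 alternatives of each line.

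*ABL1* (ENSG00000097007, chromosome 9 of hg38 from 130713043 to 130887675), the founding member of the pair, was at 141, 146 and 155 CPM with DMSO and at 138, 143 and 154 CPM with ponatinib in MDA-MB-231. The libraries overlapped and the log2 fold change was -0.02 (95% interval -0.19 to 0.15, adjusted p = 0.84). In 4T1, *Abl1* was at 138, 129 and 120 CPM with DMSO and at 149, 137 and 141 CPM with ponatinib, a log2 fold change of 0.14 (95% interval -0.02 to 0.30, adjusted p = 0.129). That value passed the threshold without DMSO replicate 1 (0.18, adjusted p = 0.0477) and with scaling by total counts (0.25, adjusted p = 0.00731). The ratio of *ABL2* to *ABL1* per kb went from 0.376 ± 0.0222 with DMSO to 0.234 ± 0.00205 with ponatinib in the human line (SD, n = 3 each). In the mouse line it went from 2.91 ± 0.285 to 1.56 ± 0.163. By the longest transcript in place of all exons, an alternative chosen after seeing the data, the mouse ratio went from 1.75 ± 0.171 to 0.933 ± 0.0976, so whether *Abl2* exceeded *Abl1* after ponatinib depended on the length used. DMSO and ponatinib libraries did not overlap in this ratio in either line. The choice of length scales all libraries of a line alike, so it cannot alter that overlap.

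Within the SRC family, *SRC*, *FYN* and *LYN* were called in opposite directions in the 2 lines, and *YES1* fell in both. *SRC* (ENSG00000197122, chromosome 20 of hg38 from 37344685 to 37406050), the prototype of the family, was at 45.8, 46.2 and 45.2 CPM with DMSO and at 53.4, 54.9 and 57.5 CPM with ponatinib in MDA-MB-231. The rise was small but separate in every library (log2 fold change 0.27, SE 0.08, adjusted p = 0.0116). It missed the threshold without DMSO replicate 3 (0.26, adjusted p = 0.0528) and with no filter on low counts (0.25, adjusted p = 0.0578). In 4T1, where *Src* (ENSMUSG00000027646, chromosome 2 of GRCm39 from 157260355 to 157313782) was abundant, it was at 520, 486 and 439 CPM with DMSO and at 333, 291 and 296 CPM with ponatinib. *Src* fell by 0.65 on the log2 scale (SE 0.08, adjusted p = 1.32e-05), with the groups apart in every library and the call kept in all 12 alternatives.

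*FYN* encodes a SRC-family kinase of adhesion and immune receptor signaling. In MDA-MB-231 (ENSG00000010810, chromosome 6 of hg38 from 111660332 to 111873452) it was at 67.8, 63.3 and 65.9 CPM with DMSO and at 75.4, 75.4 and 78.0 CPM with ponatinib. The log2 fold change was 0.22 (SE 0.07, adjusted p = 0.0286), and the call held in 6 of 12 alternatives. It was lost without DMSO replicate 2 (adjusted p = 0.128), DMSO replicate 3 (0.0876), ponatinib replicate 2 (0.0749) or ponatinib replicate 3 (0.0848), and also with no filter (0.154) or DESeq2 (0.0951). In 4T1, *Fyn* (ENSMUSG00000019843, chromosome 10 of GRCm39 from 39244851 to 39442227) had the largest fall of the 10 kinases: it was at 39.8, 44.6 and 39.0 CPM with DMSO and at 14.9, 13.8 and 12.5 CPM with ponatinib. The lowest DMSO library was well above the highest ponatinib library, and the log2 fold change was -1.58 (SE 0.11, adjusted p = 1.76e-08).

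*LYN*, a kinase best known from B cells and myeloid cells, fell in MDA-MB-231 from 22.2, 25.3 and 25.5 CPM with DMSO to 16.3, 18.9 and 19.2 CPM with ponatinib. The groups did not overlap (log2 fold change -0.42, SE 0.11, adjusted p = 0.00636), although scaling by total counts left it just short of the threshold (-0.33, adjusted p = 0.0523). In 4T1, *Lyn* rose from 13.4, 14.2 and 14.5 CPM to 18.7, 22.2 and 18.7 CPM (log2 fold change 0.50, SE 0.11, adjusted p = 0.00174). Summed myeloid markers were 27.4 to 31.9 CPM with DMSO and 18.9 to 23.1 CPM with ponatinib in MDA-MB-231, mostly *LAPTM5*, with 1 of 7 markers at 0 counts throughout. In 4T1 they were 225 to 251 CPM and 140 to 158 CPM, mostly *Cd14*, with 1 of 6 markers at 0 counts throughout. The myeloid markers *ITGAM*, *SPI1* and *CD68* were at 3 counts or fewer per group in MDA-MB-231. *CD14* was at 97 and 105 counts there with DMSO and ponatinib. *CSF1R* rose there from 34 to 89 counts (log2 fold change 1.28, SE 0.33, adjusted p = 0.0066), opposite to the sum that *LAPTM5* carries. In 4T1, *Itgam* was at 0 counts, *Spi1* at 8 and 10 counts and *Cd68* at 101 and 88 counts with DMSO and ponatinib. *Laptm5* rose there from 11 to 52 counts (log2 fold change 2.12, SE 0.49, adjusted p = 0.00195), opposite to the sum that *Cd14* carries. The part of these markers in the change of *LYN* was not tested.

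*YES1*, the broadly expressed relative of *SRC*, fell in MDA-MB-231 from 96.4, 106 and 104 CPM to 63.3, 78.5 and 83.9 CPM, with no overlap (log2 fold change -0.44, SE 0.10, adjusted p = 0.00352). In 4T1, *Yes1* was at 18.997, 26.7 and 26.3 CPM with DMSO and at 17.8, 20.0 and 17.7 CPM with ponatinib. The DMSO replicate 1 library lay within the ponatinib range. The log2 fold change was -0.37 (SE 0.13, adjusted p = 0.0242), and the call held in 7 of 12 alternatives. It was lost without DMSO replicate 2 (-0.29, adjusted p = 0.111), DMSO replicate 3 (-0.31, 0.0968), ponatinib replicate 1 (-0.35, 0.0622) or ponatinib replicate 3 (-0.34, 0.0805), and with scaling by total counts (-0.26, 0.122).

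*LCK*, the SRC-family kinase of T cells, was nearly absent from MDA-MB-231, with 0, 1 and 0 counts in the DMSO libraries and 7, 2 and 6 counts in the ponatinib libraries. It was not tested there. Fitted with no filter, an alternative, it was called higher (log2 fold change 3.37, adjusted p = 0.0425), and with DESeq2 it was not (3.67, adjusted p = 0.0762). The ratio of the summed counts, scaled to library size, was 14.0 (95% Clopper-Pearson interval 2.15 to 588, counting error only). In 4T1, *Lck* was low but measurable at 5.27, 3.61 and 5.52 CPM with DMSO and 2.76, 2.89 and 2.93 CPM with ponatinib, and it fell by 0.75 on the log2 scale (SE 0.20, adjusted p = 0.0058). Of the lymphocyte genes, 8 of 10 T and B lymphocyte markers, *Cd3d*, *Cd3e*, *Cd3g*, *Cd4* and *Cd8a* among them, were at 0 counts in every 4T1 library, and the summed level of all 10 was at most 0.222 CPM. In MDA-MB-231, 5 of the 10 were at 0 counts in every library. *CD8A* was the one above trace level there, at 3.77 ± 0.182 CPM with DMSO and 7.09 ± 0.643 CPM with ponatinib.

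**Figure D3:**
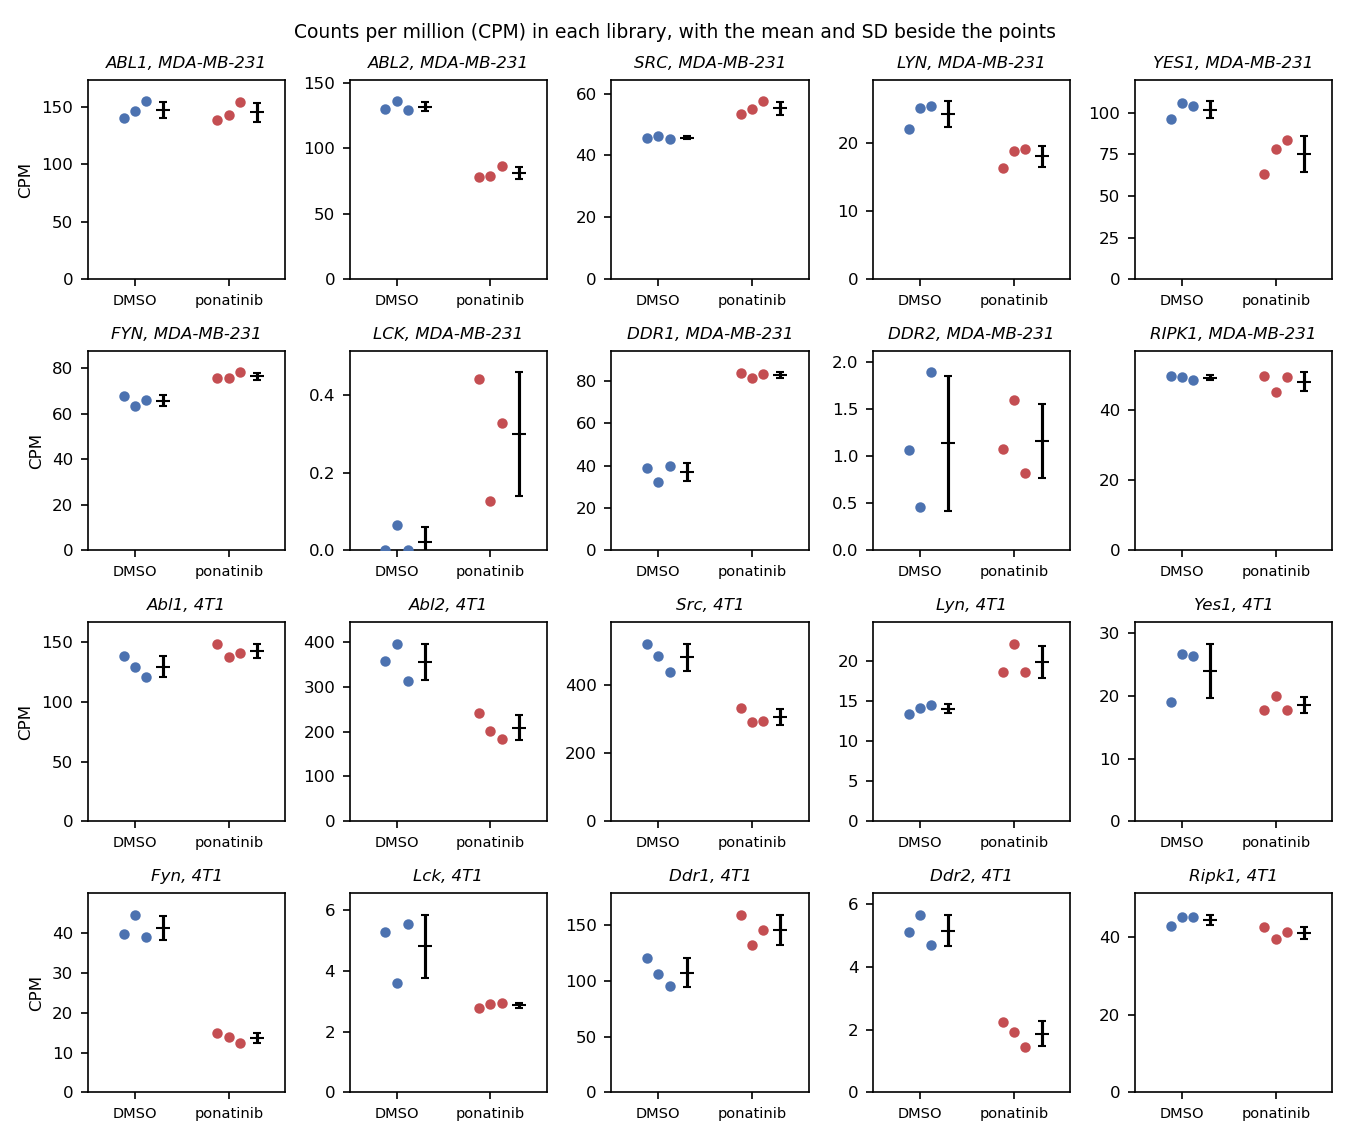
CPM of each kinase gene in every library, DMSO beside ponatinib, for MDA-MB-231 in the upper 2 rows and 4T1 in the lower 2 rows, with the mean and SD of 3 libraries beside the points and each axis starting at 0. *ABL2*, *DDR1* and, in 4T1, *Fyn* and *Src* separate clearly, whereas *ABL1*, *DDR2* in MDA-MB-231 and *RIPK1* in MDA-MB-231 overlap.

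As a sum over the 5 SRC-family genes, the level per kb went from 39.2 ± 1.01 with DMSO to 35.8 ± 2.73 with ponatinib in MDA-MB-231, where the libraries overlapped. In 4T1 it went from 91.7 ± 6.51 to 59.8 ± 3.72 without overlap (SD, n = 3 each). The composition moved in both lines: in MDA-MB-231 the share of *YES1* went from 51.0% to 41.1% ± 2.84, that of *FYN* to 28.8% ± 1.86 and that of *SRC* to 21.7% ± 0.971. In 4T1, *Src* still held 87.2% ± 1.37 after ponatinib, while the share of *Lyn* went from 3.22% ± 0.357 to 6.99% ± 0.980 and that of *Fyn* from 3.89% ± 0.330 to 1.99% ± 0.0980. By the longest transcript, likewise chosen after seeing the data, *YES1* and *FYN* held 40.9% and 33.7% in MDA-MB-231 with DMSO and 31.1% and 40.5% with ponatinib, so which of them led after ponatinib depended on the length used. These shares are descriptions and were not tested.

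**Figure D4:**
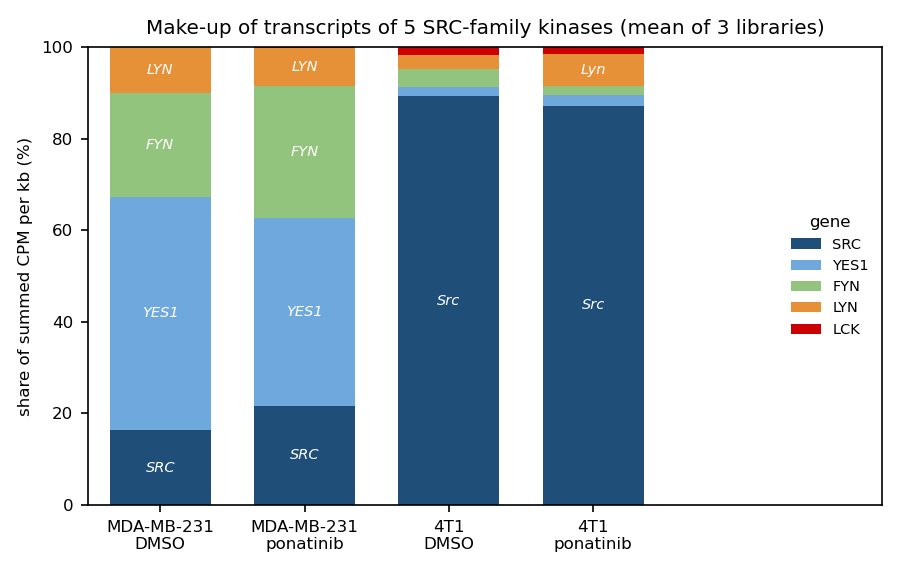
Share of each SRC-family gene in the summed CPM per kb of the 5 genes, as the mean of 3 libraries, for DMSO and ponatinib in both lines. With all exons as length, *YES1* is the largest part in MDA-MB-231 (51.0% with DMSO and 41.1% with ponatinib) and *Src* the largest in 4T1 (89.3% and 87.2%).

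The collagen receptor *DDR1* rose in both lines, and it had the largest rise of the tested kinases in MDA-MB-231. There, *DDR1* (ENSG00000204580, chromosome 6 of hg38 from 30876421 to 30900156) was at 39.0, 32.2 and 40.0 CPM with DMSO and at 83.8, 81.4 and 83.2 CPM with ponatinib. The lowest ponatinib library was far above the highest DMSO library (log2 fold change 1.16, SE 0.09, adjusted p = 1.48e-06). In 4T1, *Ddr1* (ENSMUSG00000003534, chromosome 17 of GRCm39 from 35992208 to 36015524) was at 121, 106 and 95.4 CPM with DMSO and at 159, 132 and 145 CPM with ponatinib. The groups did not overlap, and the log2 fold change was 0.44 (SE 0.09, adjusted p = 0.000947). The rise was called in all 12 alternatives of each line.

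*DDR2*, the receptor for fibrillar collagens that is typical of mesenchymal cells, was low in both lines. In MDA-MB-231 it was counted 16, 7 and 30 times with DMSO and 17, 25 and 15 times with ponatinib, and no change was called (log2 fold change 0.02, 95% interval -0.99 to 1.02, adjusted p = 0.979). In 4T1, *Ddr2* (ENSMUSG00000026674, chromosome 1 of GRCm39 from 169799876 to 169938331) fell from 5.10, 5.67 and 4.70 CPM to 2.25, 1.91 and 1.46 CPM. This was a log2 fold change of -1.45 (SE 0.21, adjusted p = 3.8e-05) and was called in all 12 alternatives. Fibroblast and endothelial markers summed to 2.95 to 4.76 CPM with DMSO and 1.91 to 2.17 CPM with ponatinib in these 4T1 libraries, mostly *Pdgfra*. Of these 7 markers, *Dcn*, *Lum* and *Thy1* were at 0 counts in all of the 4T1 libraries. *Pdgfra* had 155 counts with DMSO and 89 with ponatinib. *Pecam1* had 23 and 17 counts, *Vwf* 17 and 10, and *Cdh5* 2 and 1. Mesenchymal markers, with none of 5 at 0 counts throughout, summed to 6669 to 7636 CPM with DMSO and 4747 to 5181 CPM with ponatinib. Of them, *Fn1* (-1.82) and *Zeb1* (-0.36) fell, *Sparc* rose (0.51), and *Vim* was not called (0.15, log2 fold changes). The part of these markers in the fall of *Ddr2* was not tested.

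*RIPK1* was called in neither line. In MDA-MB-231 (ENSG00000137275, chromosome 6 of hg38 from 3063824 to 3115187) it was at 49.7, 49.4 and 48.4 CPM with DMSO and at 49.7, 45.0 and 49.4 CPM with ponatinib, a log2 fold change of -0.03 (95% interval -0.21 to 0.15, adjusted p = 0.756). In 4T1, *Ripk1* was at 42.8, 45.2 and 45.1 CPM and at 42.4, 39.4 and 41.4 CPM. The 3 ponatinib libraries lay just below the DMSO libraries, but the log2 fold change of -0.11 was not called (95% interval -0.28 to 0.06, adjusted p = 0.262).

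Whether the response differed between the lines was asked with an interaction term of line by treatment, fitted to 12488 genes with a shared human and mouse symbol. A difference was called for 5 of the 9 kinases tested in both lines. Over the 12488 genes it was called for 41.9%, and these include genes tested in only 1 of the separate fits. *LCK* was called as well, but it passed the filter through the 4T1 libraries. The value is the change in MDA-MB-231 minus that in 4T1 on the log2 scale, from 1 fit to all 12 libraries with a joint scaling, and its median over all genes was 0.04. For the 9 kinases tested in both lines it was a median of 0.072 above the subtraction of the separate fits, which gave 0.92 for *SRC*, -0.92 for *LYN*, 1.798 for *FYN* and -0.0635 for *YES1*. It was 1.87 for *FYN* (95% interval 1.61 to 2.13, adjusted p = 9.64e-10), 1.00 for *SRC* (0.76 to 1.24, adjusted p = 1e-06) and -0.85 for *LYN* (-1.18 to -0.52, adjusted p = 0.000246). Of 9838 genes tested in both lines, 10.6% were called in opposite directions, and of the 9 kinases tested in both it was these 3. Their calls in MDA-MB-231 held in 6 of 12 alternatives for *FYN*, 10 for *SRC* and 11 for *LYN*. *DDR1* rose more in MDA-MB-231 than in 4T1, by 0.79 (0.50 to 1.08, adjusted p = 0.00013).

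For the other kinases the comparison of the lines was less firm. The difference for *DDR2* was 1.54 (95% interval 0.52 to 2.55, adjusted p = 0.0155), and without MDA-MB-231 ponatinib replicate 2 it was 1.25 (adjusted p = 0.0757). That for *LCK* (4.24, adjusted p = 0.00193) was fitted on 1 and 15 counts in MDA-MB-231 and depends on the prior count, so its size is no bound. No difference was called for *ABL2* (0.14, 95% interval -0.15 to 0.42), *YES1* (0.00912, -0.35 to 0.37, the sign opposite to that of the subtraction), *ABL1* (-0.09, -0.31 to 0.14) or *RIPK1* (0.15, -0.09 to 0.39), which leaves the differences inside these intervals possible.

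The kinases and proteins that act with the SRC family were taken from lists. *PTK6*, a SRC-related kinase of epithelia, was at 36.03 ± 3.93 CPM with DMSO and 48.0 ± 2.30 CPM with ponatinib in MDA-MB-231 (log2 fold change 0.41, SE 0.10, adjusted p = 0.00388) and at 0 counts in 4T1. *Frk*, a related kinase, was the one tested in 4T1 and rose from 30.6 ± 5.78 to 45.1 ± 2.67 CPM (0.56, SE 0.12, adjusted p = 0.00103). Of 6 listed relatives, 1 of 3 tested rose in MDA-MB-231 and 1 of 1 in 4T1, and none was called lower. Among all tested genes of these lines, 54% and 59% were called, with 27.2% and 29.5% called higher.

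Among SRC regulators, 4 of 9 tested genes fell and 3 rose in MDA-MB-231 (median log2 fold change -0.26). In 4T1, 3 of 10 fell and 3 rose (median -0.0325). Over all tested genes, 54% and 59% were called in these lines. *CBLB*, a ubiquitin ligase for activated tyrosine kinases, rose in MDA-MB-231 from 4.00 ± 0.258 to 22.6 ± 0.738 CPM (log2 fold change 2.49, SE 0.12), and *TNS3*, a focal adhesion protein, rose from 61.1 ± 1.72 to 146 ± 13.4 CPM (1.26, SE 0.09). *PTPN11*, the phosphatase SHP2, fell from 192 ± 27.3 to 125 ± 21.2 CPM (-0.61, SE 0.13, adjusted p = 0.0019). In 4T1, *Ptpra*, a phosphatase that activates SRC, rose from 42.4 ± 2.78 to 82.2 ± 6.88 CPM (0.95, SE 0.09), and *Ptpre* fell from 88.4 ± 8.18 to 55.6 ± 8.21 CPM (-0.67, SE 0.10).

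*CSK*, the kinase that phosphorylates the inhibitory tail of SRC-family members, moved in the direction opposite to *SRC* and *FYN* in each line. It moved in the same direction as *LYN*. *YES1* fell in both lines, as *CSK* did in MDA-MB-231. *Lck* fell in 4T1, where *Csk* rose. In 4T1, *Csk* rose from 53.1 ± 3.18 to 107 ± 5.18 CPM (log2 fold change 1.00, SE 0.08, adjusted p = 7.99e-08). In MDA-MB-231, a value named after it was seen, *CSK* fell from 206 to 142 CPM (-0.54, SE 0.08, adjusted p = 0.000217). The difference between the lines was -1.47 (95% interval -1.71 to -1.23, adjusted p = 8.35e-09).

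Among ABL regulators and adaptors, 3 of 17 tested genes fell and 4 rose in MDA-MB-231 (median log2 fold change 0.06). In 4T1, 8 of 18 fell and 3 rose (median -0.17). The share called over all genes was 54% in the first line and 59% in the second. *CRK*, an adaptor that ABL kinases phosphorylate, fell in both: in MDA-MB-231 it went from 115 ± 2.79 to 72.4 ± 4.25 CPM (-0.66, SE 0.08, adjusted p = 2.22e-05), and the mouse gene went from 229 ± 9.71 to 171 ± 14.7 CPM (-0.42, SE 0.08, adjusted p = 0.000349). *SORBS2*, an ABL-binding adaptor, rose in MDA-MB-231 from 0.711 ± 0.0188 to 4.53 ± 0.689 CPM (2.66, SE 0.25), and *PSTPIP2* rose by 0.77 on the log2 scale. *Sorbs2*, a value named after it was seen, fell in 4T1 from 217 ± 17.2 to 173 ± 14.8 CPM (-0.33, SE 0.08, adjusted p = 0.00369). In 4T1, *Abi2*, an ABL interactor of the WAVE complex, fell from 16.2 ± 1.73 to 6.71 ± 0.746 CPM (-1.27, SE 0.14), and *Crkl*, the relative of *Crk*, fell by 0.43 on the log2 scale.

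Substrates of SRC and ABL at adhesion sites moved in both directions, with 3 of 14 lower and 6 higher in MDA-MB-231 (median log2 fold change 0.09) and 4 of 14 lower and 4 higher in 4T1 (median 0.03). These counts stand beside 54% and 59% called over all genes. *PTK2B*, the FAK-related kinase PYK2, rose in MDA-MB-231 from 0.562 ± 0.108 to 6.19 ± 1.14 CPM (3.45, SE 0.27), and the scaffold *NEDD9* rose from 5.04 ± 0.332 to 11.7 ± 0.827 CPM (1.22, SE 0.14). *CAV1*, the caveolar coat protein first found as a SRC substrate, stood at 331 ± 10.3 CPM with DMSO and 503 ± 20.0 CPM with ponatinib in the human line (0.60, SE 0.07). *Cav1* stood at 458 ± 16.1 and 211 ± 3.87 CPM (-1.12, SE 0.07). It therefore rose in one line and fell in the other, with a difference of 1.79 (95% interval 1.58 to 2.004, adjusted p = 9.68e-11). In 4T1, *Enah*, an actin regulator, fell by 0.74 and *Arhgap35*, a GTPase-activating protein, fell by 0.65 on the log2 scale. In MDA-MB-231, among values named after they were seen, *ARHGAP35* rose (0.54, SE 0.08, adjusted p = 0.000117). *ENAH* was not called there (0.18, SE 0.11, adjusted p = 0.18).

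Collagens, the ligands of DDR1 and DDR2, included several genes that rose in both lines. Of 9 tested in each, 4 rose and 1 fell in MDA-MB-231 (median log2 fold change 0.42), and 4 rose and 4 fell in 4T1 (median -0.18). Of all tested genes, 54% and 59% were called. *COL1A1* was at 27.8 ± 2.99 CPM with DMSO and 74.9 ± 2.12 CPM with ponatinib in MDA-MB-231 (1.43, SE 0.09, adjusted p = 3.37e-07). *Col1a1* likewise rose, from 3.42 ± 0.574 to 8.22 ± 0.251 CPM (1.26, SE 0.17, adjusted p = 1.41e-05). *COL1A2*, which encodes the partner chain of type I collagen, had 1 and 3 counts in MDA-MB-231 and 0 counts in 4T1. *COL6A1* rose in MDA-MB-231 from 74.6 ± 4.01 to 209 ± 5.96 CPM (1.48, SE 0.08) and *COL5A1* from 126 ± 4.53 to 221 ± 7.32 CPM (0.82, SE 0.07). Among values named after they were seen, *Col6a1* rose in 4T1 (0.99, SE 0.16), whereas *Col5a1* fell there (-0.44, SE 0.13, adjusted p = 0.00717). In 4T1, *Col5a3* rose by 1.00 on the log2 scale, and *Col8a1* fell from 1.83 ± 0.213 to 0.668 ± 0.267 CPM (-1.46, SE 0.33).

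Genes of the RIPK1 complexes moved in both directions. In MDA-MB-231, 12 of 26 tested genes fell and 6 rose (median log2 fold change -0.26), where 54% of all genes were called. With the replicate block 23 of them were called there, and without DMSO replicate 2 it was 15. In 4T1, 8 of 27 fell and 14 rose (median 0.19), where 59% of all genes were called. *TNFAIP3*, the ubiquitin-editing enzyme A20, fell in MDA-MB-231 from 63.9 ± 7.26 to 22.0 ± 2.72 CPM (-1.54, SE 0.12, adjusted p = 9.25e-07). The deubiquitinase *CYLD* fell from 35.8 ± 3.14 to 21.1 ± 0.773 CPM (-0.76, SE 0.10), and *CHUK*, the IκB kinase α, fell by 0.74 on the log2 scale. In 4T1, *Cflar*, the inhibitor of caspase-8, fell from 78.3 ± 7.24 to 33.7 ± 2.61 CPM (-1.22, SE 0.09, adjusted p = 5.87e-08). *Birc3*, a ubiquitin ligase for RIPK1, rose from 25.7 ± 1.90 to 55.6 ± 2.07 CPM (1.11, SE 0.09), and *Traf5* rose from 2.56 ± 0.346 to 5.42 ± 0.254 CPM (1.08, SE 0.18). In MDA-MB-231, among values named after they were seen, *BIRC3* fell (-0.60, SE 0.12, adjusted p = 0.00128) and *TRAF5* rose (0.59, SE 0.12, adjusted p = 0.00147).

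The necroptosis partners of RIPK1 were named after their values were seen. *RIPK3* had 0 counts with DMSO and 3 counts with ponatinib in all MDA-MB-231 libraries together. In 4T1, *Ripk3* went from 60.5 to 39.1 CPM (log2 fold change -0.63, SE 0.08, adjusted p = 1.72e-05). *MLKL*, the executor downstream of RIPK3, fell in MDA-MB-231 from 50.4 to 30.3 CPM (-0.73, SE 0.09, adjusted p = 4e-05), and *Mlkl* fell from 47.7 to 34.6 CPM (-0.46, SE 0.08, adjusted p = 0.000227).

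Other receptor kinases that ponatinib binds gave 1 of 8 tested genes lower and 4 higher in MDA-MB-231 (median log2 fold change 0.21), and 4 of 10 lower and 3 higher in 4T1 (median -0.37), where 54% and 59% of all genes were called. *EPHA2*, an ephrin receptor, fell in both lines. In MDA-MB-231 it went from 663 ± 20.2 to 214 ± 6.13 CPM (-1.63, SE 0.07, adjusted p = 1.53e-08), and *Epha2* went from 2373 ± 217 to 1102 ± 123 CPM (-1.11, SE 0.10, adjusted p = 2.55e-07). *PDGFRB* rose in MDA-MB-231 from 0.451 ± 0.257 to 9.24 ± 1.30 CPM (4.33, SE 0.29), and *CSF1R* rose from 0.735 ± 0.208 to 1.801 ± 0.375 CPM (1.28, SE 0.33). *Pdgfrb* went the other way in 4T1, from 39 counts with DMSO to 0 with ponatinib. In 4T1, *Kdr*, the VEGF receptor 2, fell from 3.42 ± 1.08 to 0.817 ± 0.367 CPM (-2.06, SE 0.34), and *Pdgfra* fell from 2.86 ± 1.08 to 1.56 ± 0.244 CPM (-0.88, SE 0.29, adjusted p = 0.0173). The call of *Pdgfra* was lost without DMSO replicate 3 (-0.53, adjusted p = 0.145) or without ponatinib replicate 1 (-0.76, adjusted p = 0.0638).

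**Figure D5:**
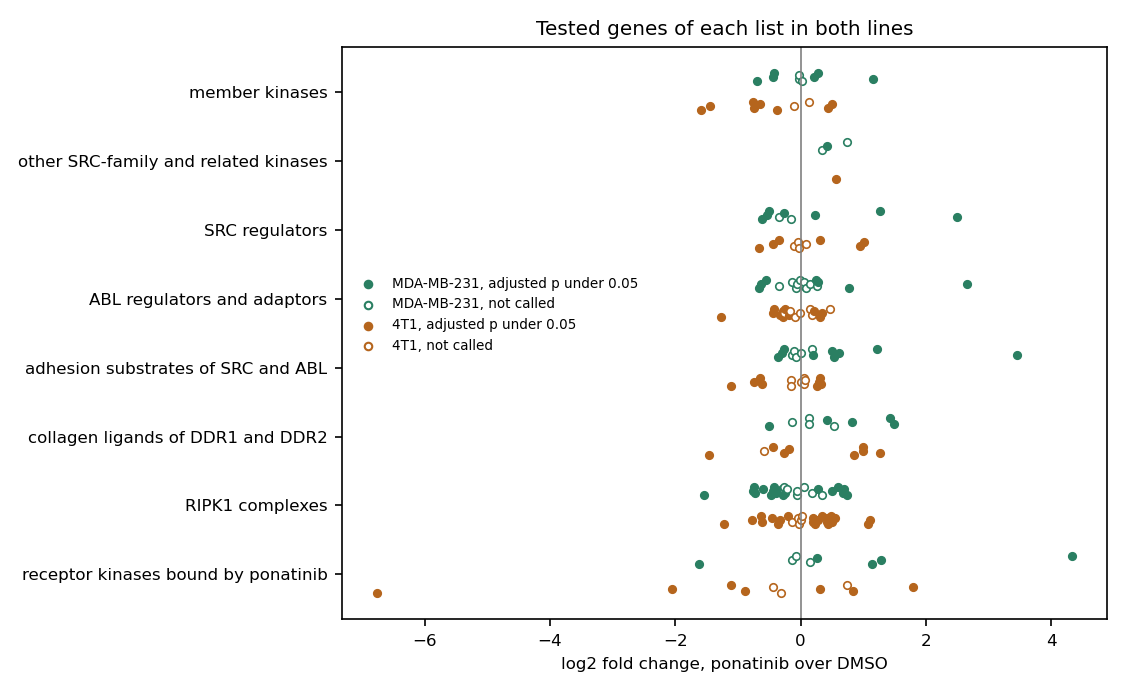
Log2 fold change with ponatinib over DMSO of each tested gene of the 10 kinases and the other 7 lists, 1 point per gene and line, filled where the adjusted p was under 0.05. Points of most lists lie on both sides of 0 in both lines. The point farthest left is *Pdgfrb* in 4T1, which had 39 counts with DMSO and 0 with ponatinib, so its fitted value depends on the prior count.

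Genes with levels most like those of 4 of the kinases were found by the root mean square difference in log2(CPM per kb + 0.1). It was taken over the 12 libraries, among 12487 other genes. The levels were not centred, so this difference includes the level and exon length in each line and not only the change with ponatinib. Among those nearest to *ABL1* were *SEPHS1* (0.16) and *TSN* (0.17), where the median gene differed by 2.53. For *SRC* they were *TSC22D1* (0.18), *F2R* (0.19) and *LARS1* (0.39), with a median of 3.32. *DDR1* was most like *WBP1L* (0.25), *TMEM134* (0.28) and *TMEM150A* (0.30), with a median of 2.51. *RIPK1* was most like *RBM7* (0.10), *ARHGEF7* (0.13) and *FAM118A* (0.13), with a median of 2.18.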

How the data were processed

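RNA-seq was performed on 12 libraries, 3 per group, assigned to groups by their labels. According to the submitters' processing notes and the methods, the authors removed adapter and poly-N reads, mapped what remained with HISAT2 (hg38 for MDA-MB-231, GRCm39 for 4T1) and obtained gene counts from HTSeq. Tool versions and strand setting are not given in the sources used here. The authors deposited gene counts as whole numbers, without normalization. Names, exon lengths and transcripts came from GENCODE v44 and vM39, which matched 81.9% of human and 91.1% of mouse identifiers (99.3% and 99.8% of counts).

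Differences were tested by the quasi-likelihood test of edgeR 4.0.16 in R 4.3.3, after filterByExpr and TMM scaling and with Benjamini-Hochberg adjustment over all tested genes, for each line apart, and for the lines' difference as the interaction of line and treatment. CPM used TMM-scaled totals. Alternatives were DESeq2 1.42.0, its size factors in edgeR, total counts, no filter, a minimum of 10 counts per library, a replicate block, and leaving out each library. The steps were tested on simulated data.

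The kinases and lists were chosen with earlier results of these data known. Text names all 10 kinases; per list and line, up to 3 genes with the largest absolute log2 fold change at an adjusted p under 0.05 and a higher group mean of 1 CPM or more; the 3 genes most like *ABL1*, *SRC*, *DDR1* and *RIPK1*; and marker genes. A few items that this rule names are not reported here. Replicate numbers were checked for pairing by correlating deviations from the group mean between same-numbered libraries, for MDA-MB-231 0.345, 0.111 and 0.133, for 4T1 0.213, 0.119 and 0.115. Each exceeded the limit of 0.1 for pairing, on these values alone, the labels naming no shared culture. For DMSO replicate 2 of MDA-MB-231 and DMSO replicate 3 of 4T1, however, a ponatinib library of another number correlated better. The reported fits had no block, and the fit with it is given as an alternative. Replicate libraries of a group differed by 2.86 to 14.7 in chi-square per gene, so none was counted as a copy of another.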

Additional observations from a re-analysis of the deposited data

Results flagged for a closer look

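The change with ponatinib differed between MDA-MB-231 and 4T1 for 5 of the 9 kinases tested in both lines, and for *LCK* (interaction of line and treatment, edgeR's quasi-likelihood test, adjusted p under 0.05), where 41.9% of all genes tested differed. As change in MDA-MB-231 minus that in 4T1 (log2, 1 joint fit to all libraries, a median of 0.072 above the subtraction of the separate fits), the values were 1.00 for *SRC*, -0.85 for *LYN*, 1.87 for *FYN*, 4.24 for *LCK*, 0.79 for *DDR1* and 1.54 for *DDR2*. For *SRC*, *LYN*, *FYN* and *DDR1* the call held in all 17 alternatives, and for *DDR2* in 16 of 17. *LCK* had 1 and 15 counts in the DMSO and ponatinib libraries of MDA-MB-231, passed the filter through the 4T1 libraries and depends on the prior count, with values from 3.77 to 6.26 over the alternatives. Species, line and culture cannot be told apart in this comparison.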

How the results depend on the processing

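Each line was refitted under 12 alternatives and the difference under 17. *ABL2* and *DDR1* in both lines, *YES1* in MDA-MB-231 and *Src*, *Fyn*, *Lyn*, *Lck* and *Ddr2* in 4T1 kept direction and call in all of them. With the replicate block no call of one of the 10 kinases changed, and it called 9675 genes of the human line and 8620 of the mouse line. With total counts, the median change over all genes became 0.11 (log2, MDA-MB-231) or 0.12 (4T1), and higher genes made up 60% or 62.3% of those called (3975 of 7893 and 3925 of 7834 otherwise). Uncalled values changed sign as follows, and the cause was not tested. *ABL1* in MDA-MB-231 was 0.0746 with total counts, 0.00852 with at least 10 counts, and -0.0652 to 0.0105 with 1 library left out. *RIPK1* was 0.0617 with total counts and -0.0597 to 0.00902 with 1 left out. *DDR2* there was -0.00993 with no filter and -0.37 to 0.60 with 1 left out. *Ripk1* in 4T1 was 0.00616 with total counts. The difference for *YES1* was -0.0176 with DESeq2's size factors, -0.0877 with total counts, -0.00647 with the replicate block, -0.0205 with DESeq2 and -0.13 to 0.12 with 1 library left out. For *ABL2* the last range was -0.0076 to 0.19. Kinases called higher in MDA-MB-231 numbered 1 to 3 with 1 library left out, 1 without DMSO replicate 3. Of the SRC relatives in MDA-MB-231, 2 were called with no filter or DESeq2 and 1 to 2 with 1 library left out, and of the receptor kinases 3 with at least 10 counts in every library. *DDR2* in MDA-MB-231 could not be fitted at that minimum. *LCK* in MDA-MB-231 rests on 1 and 15 counts. For *DDR2* there, counting error alone gave a ratio of 0.677 to 1.49, and the libraries ranged from 7 to 30 counts.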
